A study of Mus musculus with 10 samples.

Results

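The response of mouse naive CD4 T cells to PMA and ionomycin in the presence of Compound 10 was read from 5 of the 10 RNA-seq libraries of the series. The 5 libraries were chosen by their labels: 3 of stimulated and 2 of unstimulated cells, each with the compound. The cells came from the spleen of C57BL/6 mice, with no other genotype given, and were sorted as CD4+CD62L+CD69-. This gate keeps CD4 T cells that carry CD62L and lack the early activation receptor CD69, and the labels call them naive. Every one of these samples had 1 h with 12.5 µM Compound 10, which the design text of the series calls an inhibitor of NFAT:AP-1, and 3 of them then had 2 h with 10 nM PMA and 1 µM ionomycin. The other 5 libraries had the solvent DMSO in place of the compound, 3 without and 2 with the same stimulus, and are used here as the vehicle reference. The labels give neither age nor sex. They also do not state that replicate libraries were made from different mice or cultures, so each p-value rests on a spread between libraries that could be purely technical.

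PMA stands in for diacylglycerol and activates protein kinase C, which feeds the Ras-MAPK cascade and, through a complex that includes BCL10 and MALT1, the NF-kB factors. Ionomycin lets calcium into the cell, where calcineurin removes phosphates from NFAT and NFAT enters the nucleus. On many cytokine genes NFAT binds next to Fos-Jun dimers of AP-1, while other activation genes are driven by MAPK, NF-kB or calcium-dependent factors without that pair. The comparison asks which of these programmes still respond when the inhibitor is present.

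The 5 libraries held 11629270 to 33486259 estimated counts, the largest of them the second unstimulated library. Marker sums in this paragraph are CPM (counts scaled to library size) by library totals alone. The CPM of single genes below also use the TMM factors of edgeR. Genes of T cell identity summed to 3020 to 3170 CPM without and 2800 to 3390 CPM with stimulation, and none of the 10 was at 0. Markers of B cells (56.9 to 72.7 and 44.4 to 69.9 CPM), NK cells (4.18 to 8.08 and 5.83 to 7.86 CPM, Ncr1 at 0) and CD8 T cells (2.89 to 7.34 and 1.98 to 6.14 CPM) overlapped between the groups. Myeloid markers summed to 33.2 to 38.6 CPM without and 17.4 to 20.3 CPM with stimulation, and memory or effector markers to 112 to 125 and 86.2 to 104 CPM. Regulatory T cell markers, a list that includes Il2ra and Ctla4, summed to 122 to 138 CPM without and 108 to 129 CPM with stimulation. The TMM factors were 1.25 and 1.2 in unstimulated and 0.783, 0.85 and 0.812 in stimulated libraries. Dividing by them lowers the unstimulated and raises the stimulated sums. The overlaps and directions given for marker sums thus describe library totals, and each need not hold once the TMM factors are applied. Unstimulated libraries spent 2.07% to 4.61% and stimulated libraries 4.97% to 10.8% of their counts on models similar to ribosomal RNA. The part of these differences in the results was not tested. In such bulk samples, fewer cells of a type and less RNA per cell cannot be told apart.

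Stimulation changed a large share of the measured genes in Compound 10-treated cells. Of 14417 tested genes, 3816 were called (adjusted p under 0.05 in edgeR's quasi-likelihood test): 1844 (12.8%) were higher and 1972 (13.7%) lower in stimulated cells, and 1178 (8.17%) and 1095 (7.6%) of them changed by at least 2-fold. Upper-quartile factors gave 2107 higher and 1660 lower, and library totals with no further factor gave 810 and 5219. The last scaling moved the median log2 fold change of all genes from -0.01 to -0.60, so that small rises turned into falls there. Without the second unstimulated library 2347 genes were called, and 855 higher and 893 lower genes kept the call in each of the 10 fits that left out 1 library. A gene is called stable below when it did so, and the genes named are stable unless the text says otherwise.

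Under vehicle the same stimulus gave 2814 higher (19.5%) and 2803 lower genes (19.4%). The 2 contrasts share no library, but 1 fit of all 10 libraries set the gene filter, the scaling and the spread for both. The 2 lists were thus not made independently. Leaving out 1 vehicle library gave 3443 (the first stimulated) to 4370 (the third unstimulated) calls under Compound 10. Of the genes called higher with Compound 10, 1460 were also higher under vehicle, which is 79.2% of the Compound 10 list and 51.9% of the vehicle list. Of the genes called lower, 1258 were shared (63.8% and 44.9%). The difference between the 2 stimulation effects was itself called for 956 genes (6.63%). In 368 of them (2.55%) the effect was more positive with Compound 10, and in 588 (4.08%) it was more negative. This split depended on the scaling, with 494 and 476 genes by upper-quartile factors and 527 and 314 by library totals. Of the 1460 genes that rose in both, the rise differed in 191: it was smaller with Compound 10 in 183 and larger in 8. The 2 stimulated vehicle libraries weigh heavily on this test: it called 191 genes without the first of them and 282 without the second. It called 423 without the second unstimulated and 520 and 579 without the first and second stimulated Compound 10 library, and 532 without the second unstimulated vehicle library. Of the 956 genes, 161 were stable (32 more positive, 129 more negative), and the differences named below come from these unless stated.

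**Figure D1:**
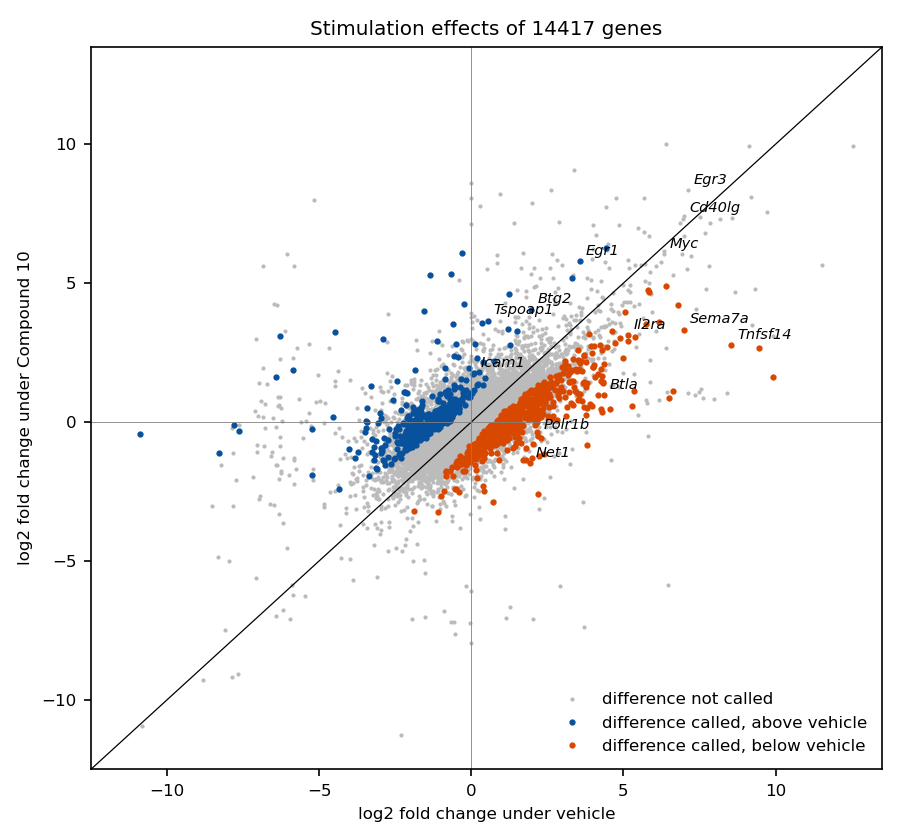
Log2 fold change on stimulation under vehicle (horizontal axis) and with Compound 10 (vertical axis) for 14417 genes, 1 point per gene. Blue and orange points are the 368 and 588 genes whose effects differed between the 2 treatments by the test of the difference, and the line marks equal effects. Egr3, Cd40lg and Myc lie near it, Egr1, Btg2 and Icam1 above it, and Il2ra, Sema7a and Polr1b below it.

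All 16 genes of an activation panel rose with Compound 10 (median log2 fold change 5.91, against -0.01 for all tested genes), and all 16 were stable. The list counts that follow are to be read against the shares of all tested genes, 12.8% higher and 13.7% lower with Compound 10, 19.5% and 19.4% under vehicle, and 2.55% and 4.08% for a more positive or more negative difference; they are descriptions of lists chosen with earlier results known. Il2, which encodes the growth factor interleukin-2 of T cells (chromosome 3, 37120523 to 37125959), was at 0.0639 and 0.0251 CPM in the unstimulated and at 29.3, 50.5 and 46.9 CPM in the stimulated libraries. The groups did not overlap, which held for 24.6% of tested genes in this direction. The summed counts of the unstimulated libraries came to 2, and the ratio was 1200 with a 95% counting interval of 331 to 9910. Tnf, the gene of tumour necrosis factor, stood at 53.3 and 50.9 CPM without and at 8424, 6381 and 7530 CPM with stimulation (log2 fold change 7.16 ± 0.35 SE, edgeR adjusted p = 3.16e-07). Nr4a1, an orphan nuclear receptor induced within minutes of T cell activation, went from 560 and 475 CPM to 25920, 24360 and 28320 CPM (5.66 ± 0.27, adjusted p = 2.50e-07). The effects of these 3 genes did not pass the test of a difference from vehicle, whereas the smaller rise of Il2ra did. Not passing does not mean an equal effect, as the levels of Il2 at the end of this paragraph show. Il2ra encodes the alpha chain that gives the interleukin-2 receptor its high affinity. It read 5.56 and 3.87 CPM without and 30.6, 48.5 and 41.7 CPM with stimulation (3.12 ± 0.27), and 152 and 184 CPM in stimulated vehicle cells (difference -2.03 ± 0.34, adjusted p = 0.0068). For Il2 itself, stimulated vehicle cells held 345 and 381 CPM, above each of the 3 stimulated Compound 10 libraries, while the difference of the log2 effects (-2.61) did not pass (adjusted p = 0.306) with 2 counts in the unstimulated group.

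**Figure D2:**
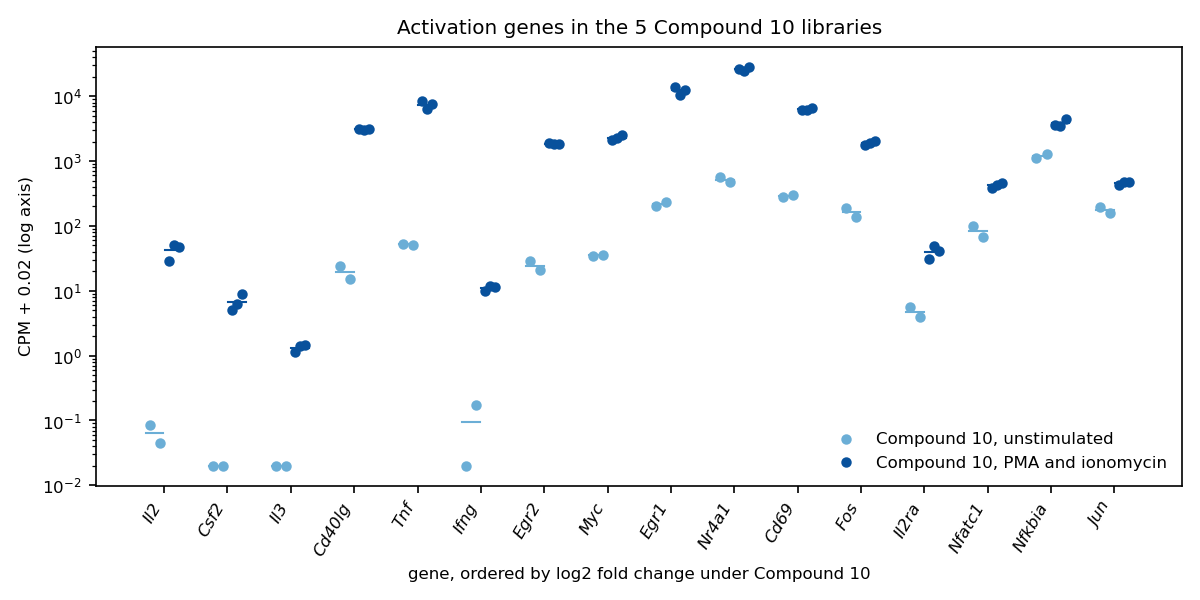
CPM of the 16 panel genes (log axis, 0.02 added so that zeros can be drawn) in each of the 2 unstimulated (light) and 3 stimulated (dark) Compound 10 libraries, with the group mean as a bar. No gene shows an overlap of the groups, and Csf2 and Il3 sit at 0 in both unstimulated libraries.

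The promoters of these 4 genes are shown because they span the range of the response, from Il2 with the largest fold and Nr4a1 with one of the most abundant transcripts to Il2ra with a rise called smaller than under vehicle. Il2 too stood below vehicle in stimulated cells. The sequences are the 250 bases before the start of the gene in RefSeq (GRCm38.p6, the mm10 build), 5′ to 3′ on the strand of the gene. For Il2 the 245 bases that do not touch an annotated exon are given. Capitals mark matches to the NFAT core GGAAAA, the AP-1 site TGANTCA, the CArG box bound by serum response factor, the EGR site GCGTGGGCG and the NF-kB site, searched on both strands. The windows are chr3:37125960-37126204 (minus strand) for Il2, chr17:35202008-35202257 (minus) for Tnf, chr15:101266596-101266845 (plus) for Nr4a1 and chr2:11642542-11642791 (plus) for Il2ra.
Il2: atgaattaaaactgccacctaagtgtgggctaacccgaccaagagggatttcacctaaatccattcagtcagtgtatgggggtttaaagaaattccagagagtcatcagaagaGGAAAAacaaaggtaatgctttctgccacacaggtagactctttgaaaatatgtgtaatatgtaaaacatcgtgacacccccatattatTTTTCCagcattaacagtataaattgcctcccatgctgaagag
Tnf: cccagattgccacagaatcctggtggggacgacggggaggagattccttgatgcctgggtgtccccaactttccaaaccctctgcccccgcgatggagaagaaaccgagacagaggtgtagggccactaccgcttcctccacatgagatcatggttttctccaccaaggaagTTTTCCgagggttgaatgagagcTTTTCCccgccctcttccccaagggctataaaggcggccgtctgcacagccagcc
Nr4a1: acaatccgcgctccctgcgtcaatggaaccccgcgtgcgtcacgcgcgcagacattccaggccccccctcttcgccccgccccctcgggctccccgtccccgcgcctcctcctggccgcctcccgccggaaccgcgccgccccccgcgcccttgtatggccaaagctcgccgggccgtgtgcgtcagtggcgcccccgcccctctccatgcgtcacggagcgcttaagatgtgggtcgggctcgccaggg
Il2ra: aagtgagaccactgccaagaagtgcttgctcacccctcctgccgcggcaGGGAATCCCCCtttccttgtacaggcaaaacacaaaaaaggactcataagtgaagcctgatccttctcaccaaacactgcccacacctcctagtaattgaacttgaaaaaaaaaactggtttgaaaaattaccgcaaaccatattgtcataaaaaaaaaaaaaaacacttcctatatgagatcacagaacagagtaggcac
The Il2 window held 2 NFAT cores, 1 on the sense strand from 137 to 132 bases before the start and 1 on the antisense strand from 48 to 43. The Tnf window also held 2, both antisense, from 78 to 73 and from 55 to 50 bases before the start. In the Il2ra window 2 overlapping NF-kB matches lay from 201 to 192 and from 200 to 191, and no NFAT core was found. Nr4a1 showed no match to any of the 5. An NFAT core occurs in 20.4% of 32851 such windows of the RefSeq table, an AP-1 site in 6.75%, an NF-kB site in 3.9%, a CArG box in 1.47% and an EGR site in 0.536%. A match describes these letters and is no evidence of binding.

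Early transcription factors of the EGR and NR4A families responded without exception: 9 of 9 genes rose and were stable (median 5.66; vehicle 9 of 9). Egr1, a zinc finger factor downstream of MAPK and serum response factor, read 205 and 238 CPM without stimulation and 13970, 10590 and 12300 CPM with it (5.79 ± 0.25, adjusted p = 1.77e-07). The vehicle libraries stood at 152 to 215 CPM and rose to 1880 and 2294 CPM, so that the rise was larger with Compound 10 by 2.24 ± 0.27 on the log2 scale (adjusted p = 0.00215). Each stimulated Compound 10 library lay above both stimulated vehicle libraries. Egr2 went from 28.4 and 20.6 to 1916, 1813 and 1824 CPM (6.25 ± 0.39). Its difference from vehicle (1.81, adjusted p = 0.029) was not stable: it was lost without any single stimulated library of either treatment and without the second unstimulated library of either. Egr3, which with Egr2 restrains T cell activation, rose from 0.639 and 0.226 to 136, 108 and 120 CPM (8.36 ± 0.42). The relatives Nr4a2 and Nr4a3 rose by 4.69 and 4.76, and the corepressors Nab2 and Nab1, which bind EGR proteins, by 3.60 and 1.90. For Nr4a3 and Nab1 the effect was called more negative than under vehicle. Of the 4 differences called in this list, 2 in each direction, only that of Egr1 was stable.

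Among AP-1 and related bZIP factors 11 of 16 tested genes (68.8%) rose and 1 fell (median 1.39), and the 11 rises were stable while the fall was lost without either unstimulated library, the second stimulated library or the third. Fos moved from 189 and 136 to 1761, 1889 and 2035 CPM (3.55 ± 0.25, adjusted p = 3.06e-06). The Fos relatives Fosl1 (5.66), Fosb (4.10) and Fosl2 (3.34) rose by a similar order of size. The dimer partners of Fos rose less on the log2 scale: Junb by 1.46 ± 0.17, from 1304 and 1623 to 3931, 3717 and 4397 CPM, and Jun by 1.36 ± 0.22, from 197 and 158 to 429, 473 and 468 CPM. Atf3, a stress-induced bZIP factor, increased by 5.76 ± 0.58 and Maff, a small Maf protein, by 3.97 ± 0.26. No stable difference from vehicle was found in this list. On simulated counts for all 14417 genes, with 200 changed, the test of the difference recovered 3.4% of 2-fold and 39.4% of 4-fold differences. That setting had 1 common level per gene in all groups and fewer changed genes than were called here. Its rates need not carry over to these data, and a gene without a call may still differ.

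Of the other immediate-early genes 21 of 23 rose and 1 fell, 16 and 1 of them stable, and of the MAPK feedback genes 11 of 16 rose, 9 stable (medians 1.55 and 1.78). Btg2, an antiproliferative factor that promotes mRNA decay, was measured at 157 and 178 CPM without and at 2705, 2852 and 2756 CPM with stimulation. That rise of 4.05 ± 0.16 exceeded the one under vehicle by 2.07 ± 0.19 (adjusted p = 6.58e-04), where Btg2 reached 671 and 694 CPM. The phosphatase genes Dusp2, Dusp4, Dusp5 and Dusp6, whose products switch off MAP kinases, rose by 4.31, 3.68, 2.40 and 2.33. Dusp6 stood at 54.7 and 46.8 CPM in unstimulated and at 252, 255 and 258 CPM in stimulated libraries, with no overlap. Spry1, an inhibitor of Ras-MAPK signalling, went from 2.49 and 3.97 to 64.0, 94.8 and 83.8 CPM (4.61 ± 0.39). Srf, the gene of serum response factor, rose by 1.55 and Gadd45b, an early stress gene, by 3.62.

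NF-kB subunits and feedback genes rose in 16 of 20 cases and fell in 2 (median 1.82, against 1.65 under vehicle), with 14 rises and 1 fall stable. Nfkbid, a nuclear IkB protein, was at 226 and 160 CPM without and at 13900, 12460 and 15360 CPM with stimulation (6.17 ± 0.31, adjusted p = 3.64e-07). The inhibitors that NF-kB itself induces followed: Nfkbie rose by 4.04 ± 0.19, Nfkbiz by 3.80 ± 0.27 and Nfkbia by 1.69 ± 0.17. Rel, the c-Rel subunit that dominates NF-kB in lymphocytes, moved from 192 and 186 to 1645, 2211 and 1696 CPM (3.29 ± 0.22), and Relb and Nfkb2 of the alternative pathway rose by 1.60 and 1.68. Icam1, an adhesion molecule, read 148 and 126 CPM without and 460, 431 and 499 CPM with stimulation (1.76 ± 0.20). Under vehicle Icam1 overlapped between the groups (111 to 144 and 106 to 153 CPM), and the difference of 1.67 ± 0.27 passed the test (adjusted p = 0.00633). In this list 4 differences from vehicle were called. The effect was more positive with Compound 10 in Icam1 and Tnip1 and more negative in Nfkb1 and Rel, and only the Icam1 difference was stable.

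In the NFAT and calcineurin list 2 of 14 genes rose (14.3%, close to the 12.8% of all tested genes) and none fell (median 0.08), and without a further scaling factor 1 rose and 4 fell (median -0.51). Under vehicle 2 rose and 4 fell (median -0.59), and 1 rose and 11 fell with library totals. The median difference of the list was 0.73, and only the difference of Nfatc1, a negative one, was called. Nfatc1, whose short isoform is induced by NFAT itself, was the stable member with Compound 10. It stood at 99.3 and 66.4 CPM without and at 384, 434 and 461 CPM with stimulation (2.37 ± 0.21, adjusted p = 2.01e-05), against 1181 and 1105 CPM in stimulated vehicle cells. The difference of -1.33 (adjusted p = 0.0163) was lost without either stimulated vehicle library or the first unstimulated Compound 10 library. Rcan1, a calcineurin inhibitor induced by NFAT, read 7.28 and 5.50 without and 14.4, 10.3 and 11.2 CPM with stimulation, a call (0.91) lost without the second unstimulated or the first stimulated Compound 10 library. For Nfatc2 (0.10) and Nfatc3 (-0.25), the NFAT proteins of resting T cells, the groups overlapped.

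Of 16 tested cytokine genes 9 rose and 2 fell (median 2.93), with the 9 rises and 1 fall stable. Under vehicle 13 rose and 2 fell (median 3.88), and 4 of those rises were not called with Compound 10. The only called difference in this list, that of Il16, was more positive with Compound 10 and not stable. Csf2 and Il3, neighbouring haematopoietic growth factor genes, had no count in either unstimulated library. They reached 4.98, 6.17 and 8.85 CPM (Csf2, at least 125-fold higher when the unstimulated group is set to 3 counts in sum) and 1.11, 1.37 and 1.42 CPM (Il3, at least 24.3-fold higher). Ifng, the gene of interferon gamma, went from 0 and 0.151 to 9.84, 12 and 11.4 CPM (6.68 ± 0.59). Lif, a cytokine of the interleukin-6 family, rose by 7.0 ± 0.41, from 0.128 and 0.176 to 16.3, 24.3 and 23.4 CPM. Tgfb1, the gene of the regulatory cytokine TGF-beta 1, rose by 2.19. Osm, the gene of oncostatin M, fell by 2.41, from 12.1 and 9.74 to 2.32, 2.49 and 1.33 CPM. Il21 was read with 3 and 18 summed counts and did not pass (adjusted p = 0.0534). The chemokine genes rose in 5 of 6 cases (median 5.43), 4 of them stable. Under vehicle 5 of 6 rose as well (median 6.68). The effect was called more positive with Compound 10 in Cxcl10 and more negative in Xcl1, and neither difference was stable. Ccl4, which attracts monocytes and T cells, increased from 0.128 and 0.402 to 61.9, 95.2 and 104 CPM (8.09 ± 0.48). Ccl3, its close neighbour in sequence and on the chromosome, rose by 6.79, and reads shared between the pair could be divided wrongly.

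TNF superfamily ligands rose in 7 of 8 cases, 6 of them stable (median 2.84, against 4.77 under vehicle). Cd40lg, through which helper T cells activate B cells, was at 24.0 and 15.2 CPM without and at 3164, 3034 and 3155 CPM with stimulation (7.32 ± 0.44, adjusted p = 1.07e-06). The other 3 named ligands rose by less than under vehicle. Tnfsf14, the gene of LIGHT, went from 0.319 and 0.301 to 1.33, 2.14 and 2.92 CPM (2.77 ± 0.54), and stimulated vehicle cells held 16.9 and 19.3 CPM (difference -5.78 ± 0.85, adjusted p = 0.00381). With Compound 10 this gene rested on 17 unstimulated and 70 stimulated counts in sum, so the size of its difference is uncertain. Tnfsf11, the gene of RANK ligand, stood at 10.0 and 7.78 CPM without and at 106, 110 and 92.0 CPM with stimulation (3.54 ± 0.22). Its stimulated levels overlapped those of vehicle cells (127 and 96.5 CPM), and its unstimulated levels lay above theirs (1.86 to 2.41 CPM), giving a difference of -2.20 ± 0.28 (adjusted p = 0.00215). Tnfsf8, the gene of CD30 ligand, rose by 1.41 ± 0.25 (difference -2.25 ± 0.34).

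The receptors of this family rose in 7 of 13 cases and fell in 1, with 4 rises stable, and without the second unstimulated library the rises numbered 4 and the falls 0. Tnfrsf1b, the second TNF receptor, went from 100 and 56.9 to 652, 763 and 641 CPM (3.13 ± 0.30). Tnfrsf4 (OX40) and Cd27, both costimulatory, rose by 1.97 and 1.64. Tnfrsf9 (4-1BB), another costimulatory receptor, read 9.13 and 6.08 without and 24.0, 26.1 and 21.7 CPM with stimulation (1.67 ± 0.21). In stimulated vehicle cells Tnfrsf9 held 79.8 and 82.9 CPM, and the difference was -2.64 ± 0.28 (adjusted p = 0.00132).

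Activation and checkpoint receptors rose in 15 of 23 cases and fell in 1 (10 and 1 stable; median 1.41, against 2.61 under vehicle), and 9 rose with library totals as the scaling. Cd69, the receptor whose absence defined the sort gate, was at 283 and 299 CPM without and at 6172, 6182 and 6671 CPM with stimulation (4.45 ± 0.16, adjusted p = 5.34e-08). Slamf7, an adhesion and signalling receptor, moved from 2.56 and 0.778 to 238, 303 and 220 CPM (7.41 ± 0.73). The PD-1 gene Pdcd1 rose by 3.95 ± 0.36 and the PD-L1 gene Cd274 by 2.42 ± 0.21. Havcr2, the TIM-3 gene, rested on 1 unstimulated count (ratio 57.2, 95% counting interval 9.57 to 2330). Ctla4, a brake on costimulation, read 14.7 and 13.5 without and 12.4, 22 and 12.5 CPM with stimulation, and the groups overlapped.

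In 7 receptors of this list the stimulation effect was more negative than under vehicle, and 5 of these differences were stable: Il2ra (above), Sema7a, Cd160, Btla and Cd44. Sema7a, a semaphorin that binds integrins, rose from 2.49 and 2.71 to 19.6, 34.1 and 24.8 CPM (3.32 ± 0.33), and vehicle cells from 0.430 to 0.986 up to 101 and 90.9 CPM (difference -3.67 ± 0.44, adjusted p = 0.00211). Cd160, an inhibitory receptor, stood at 0.511 and 0.929 without and at 0.884, 1.11 and 0.885 CPM with stimulation, where vehicle cells reached 16.4 and 17.4 CPM (difference -3.95 ± 0.50). Btla, a receptor for the same ligand family, read 27.3 and 16.6 without and 32.7, 56.3 and 38.0 CPM with stimulation. Vehicle cells went from 4.82 to 8.39 up to 141 and 142 CPM, and the difference was -3.39 ± 0.41 (adjusted p = 0.00215). Cd44, the adhesion receptor that marks activated T cells, was at 15.3 and 11.2 without and at 24.4, 15.9 and 17.8 CPM with stimulation, an effect of 0.56 that did not pass (adjusted p = 0.132). Its difference from vehicle, where it went from 4.33 to 6.14 up to 28.3 and 30.2 CPM, was -2.01 ± 0.35 (adjusted p = 0.00816). For Btla, Cd44 and Sema7a both unstimulated Compound 10 libraries lay above the 3 unstimulated vehicle libraries.

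**Figure D3:**
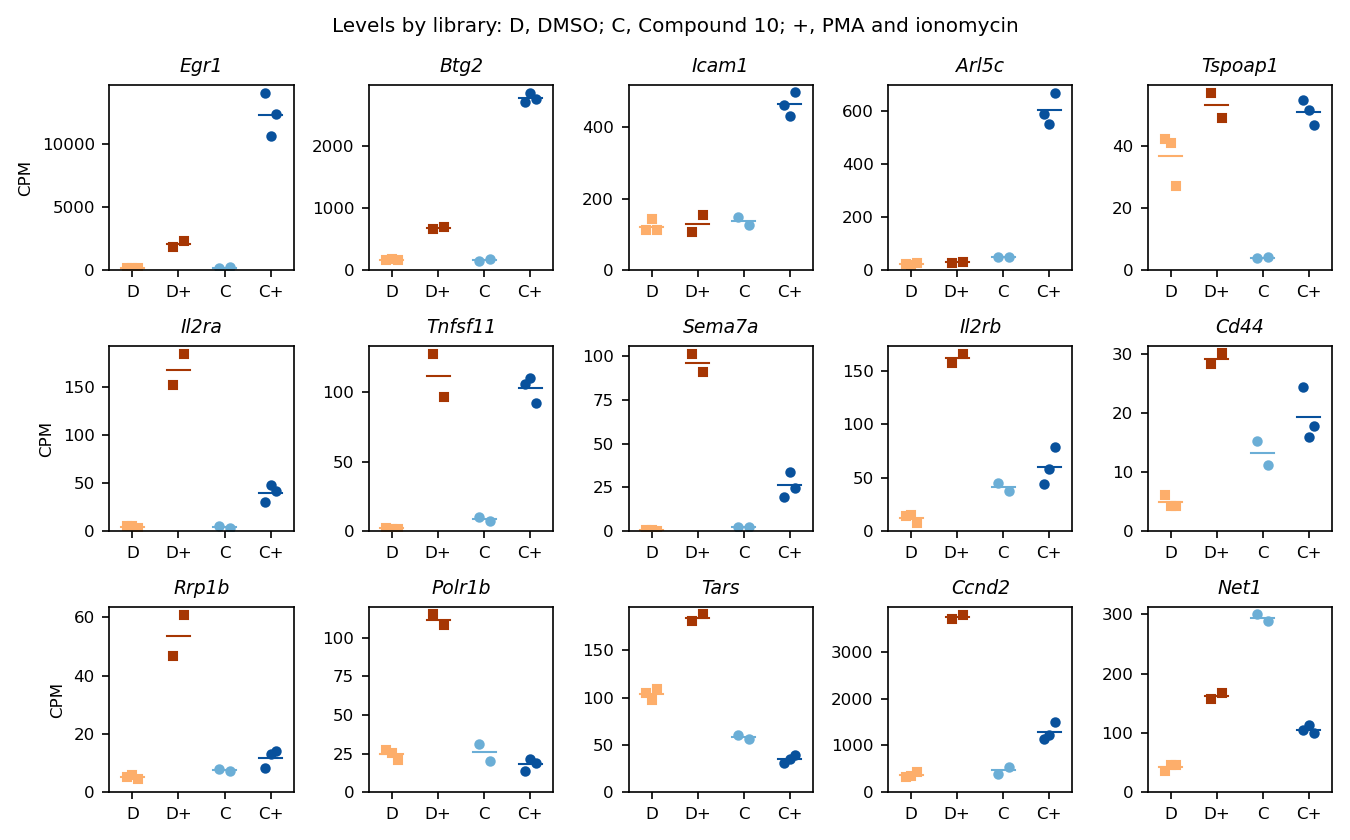
CPM per library of 15 genes whose stimulation effects differed between the treatments, each from 0 on its own scale, with squares for vehicle (D, D+) and circles for Compound 10 (C, C+) and bars at the group means. The upper row holds genes with a more positive effect under Compound 10 and the other rows genes with a more negative one. Net1 falls with Compound 10 and rises under vehicle.

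Among lineage and IRF transcription factors 6 of 20 rose and 1 fell (median 0.45; 5 and 6 with library totals, median -0.14), and 5 rises were stable. Irf4, which ties receptor signal strength to effector fate, moved from 11.1 and 6.70 to 608, 698 and 433 CPM (6.05 ± 0.42, adjusted p = 3.06e-06). Bhlhe40 (4.45), Tbx21 (3.69, the T-bet gene of Th1 cells), Prdm1 (2.27, the Blimp-1 gene) and Irf8 (2.06) also rose. Gata3, Bcl6 and Foxp3, which specify Th2, follicular and regulatory T cells, gave values of 0.38, 0.23 and -0.17 with overlapping groups.

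Of the cytokine receptors and their feedback genes, 7 of 24 rose (29.2%) and 3 fell (12.5%, near the 13.7% of all genes), 5 and 2 of them stable (median 0.16), and 5 rose and 10 fell with library totals (median -0.43). Socs1, an inhibitor of JAK kinases, went from 57.3 and 94.1 to 778, 709 and 772 CPM (3.31 ± 0.24), and Cish, a feedback gene of STAT5, rose by 3.07 ± 0.21. The receptor genes Il4ra and Il21r rose by 2.15 and 1.54, and both interferon gamma receptor genes fell, Ifngr1 by 1.85 and Ifngr2 by 0.84. Il2rb, the signalling beta chain of the interleukin-2 receptor, overlapped between the groups (45.1 and 38.2 against 43.9, 58.4 and 79.0 CPM). Under vehicle Il2rb rose from 7.63 to 15.1 up to 158 and 166 CPM, and the difference was -3.18 ± 0.41 (adjusted p = 0.00221). Il6st, the shared chain of the interleukin-6 family receptors, likewise gave -0.35 with Compound 10 against 2.17 under vehicle (difference -2.53 ± 0.40, adjusted p = 0.00507).

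Factors that promote mRNA decay rose in 8 of 13 cases and none fell (median 1.15), with 7 rises stable. Zc3h12a, the Regnase-1 gene, read 25.9 and 24.5 without and 202, 141 and 169 CPM with stimulation (2.76 ± 0.22), and Zfp36, which binds AU-rich elements, rose by 1.92. Zfp36l1, a relative of Zfp36, rose by 2.74 ± 0.17 from 243 and 289 to 1698, 1622 and 2025 CPM. Stimulated vehicle cells held a higher level (4265 and 4078 CPM; difference -1.27 ± 0.21, adjusted p = 0.0062).

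Genes of the naive and quiescent state fell in 10 of 24 cases (41.7%, against 13.7% of all genes) and rose in 3 (12.5%, against 12.8%; median -0.39), with 6 falls and 3 rises stable. Slfn1, a growth-restraining Schlafen gene of quiescent T cells, fell by 3.20 ± 0.25, from 87.9 and 105 to 10.9, 13.2 and 7.34 CPM (adjusted p = 7.33e-06). Fbxo32, a FOXO target, fell by 3.01, Cdkn1b, the cyclin-dependent kinase inhibitor p27, by 2.62 and Pik3ip1, an inhibitor of PI3K, by 2.04. Klf3 and Tsc22d3, the GILZ gene, dropped by 1.38 and 1.43. Id2, Id3 and Sesn3 rose by 1.35, 1.14 and 1.52. Klf2, the factor that maintains the homing programme, went from 81.7 and 127 to 57.5, 36.8 and 58.4 CPM, a fall (-1.04) whose call was lost without the second unstimulated library.

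Of 19 homing and adhesion receptors, 3 were called higher (15.8%) and 2 lower (10.5%), 2 and 1 of them stable. These shares lay near the 12.8% and 13.7% of all tested genes, and the median was 0.14, and -0.45 with library totals. S1pr1, the receptor for exit from lymphoid tissue, fell by 0.89 ± 0.19, from 150 and 176 to 82.9, 81.3 and 101 CPM. In 3 of the 19 genes, Cd47, P2ry10 and S1pr1, the effect was called more positive than under vehicle. Of all tested genes 2.55% were called in this direction, and none of the 3 differences was stable. Gpr183 and Cxcr5, which guide cells towards follicles, rose by 3.31 and 3.06. Ccr7, the chemokine receptor for entry into lymph nodes, overlapped between the groups (822 and 640 against 1000, 822 and 974.5 CPM).

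Genes of the T cell receptor complex and its proximal signalling rose in 8 of 30 cases and fell in 1 (median 0.34), where vehicle had 16 and 4. Of the rises 7 were stable, and 4 rose and 8 fell with library totals (median -0.26). Under vehicle library totals gave 11 higher and 12 lower (median -0.04, against 0.74 in the main scaling). Ptpn22, a phosphatase that restrains receptor signalling, rose by 2.60 ± 0.18, Sla, an adaptor that lowers receptor levels, by 2.85 and Trac, the alpha chain constant gene, by 1.32. Lcp2, the SLP-76 adaptor, was measured at 104 and 97.5 without and at 166, 231 and 247 CPM with stimulation (1.09 ± 0.23, not called with library totals). Under vehicle Lcp2 went from 24.7 to 39.0 up to 284 and 272 CPM, with a difference of -2.12 ± 0.31 (adjusted p = 0.00332). In 8 genes of the list the effect was more negative than under vehicle, 5 without the first and 4 without the second stimulated vehicle library, and 5 without the first stimulated Compound 10 library. Stable among them, beside Lcp2, were Malt1 (0.57 against 2.68), Cd5 (0.34 against 2.31) and Cd6 (-0.38 against 1.67), the first part of the complex that leads to NF-kB and the others inhibitory coreceptors. Each of these 4 genes was higher in both unstimulated Compound 10 libraries than in any unstimulated vehicle library: Cd5 for example stood at 198 and 123 CPM against 35.8 to 53.7 CPM.

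**Figure D4:**
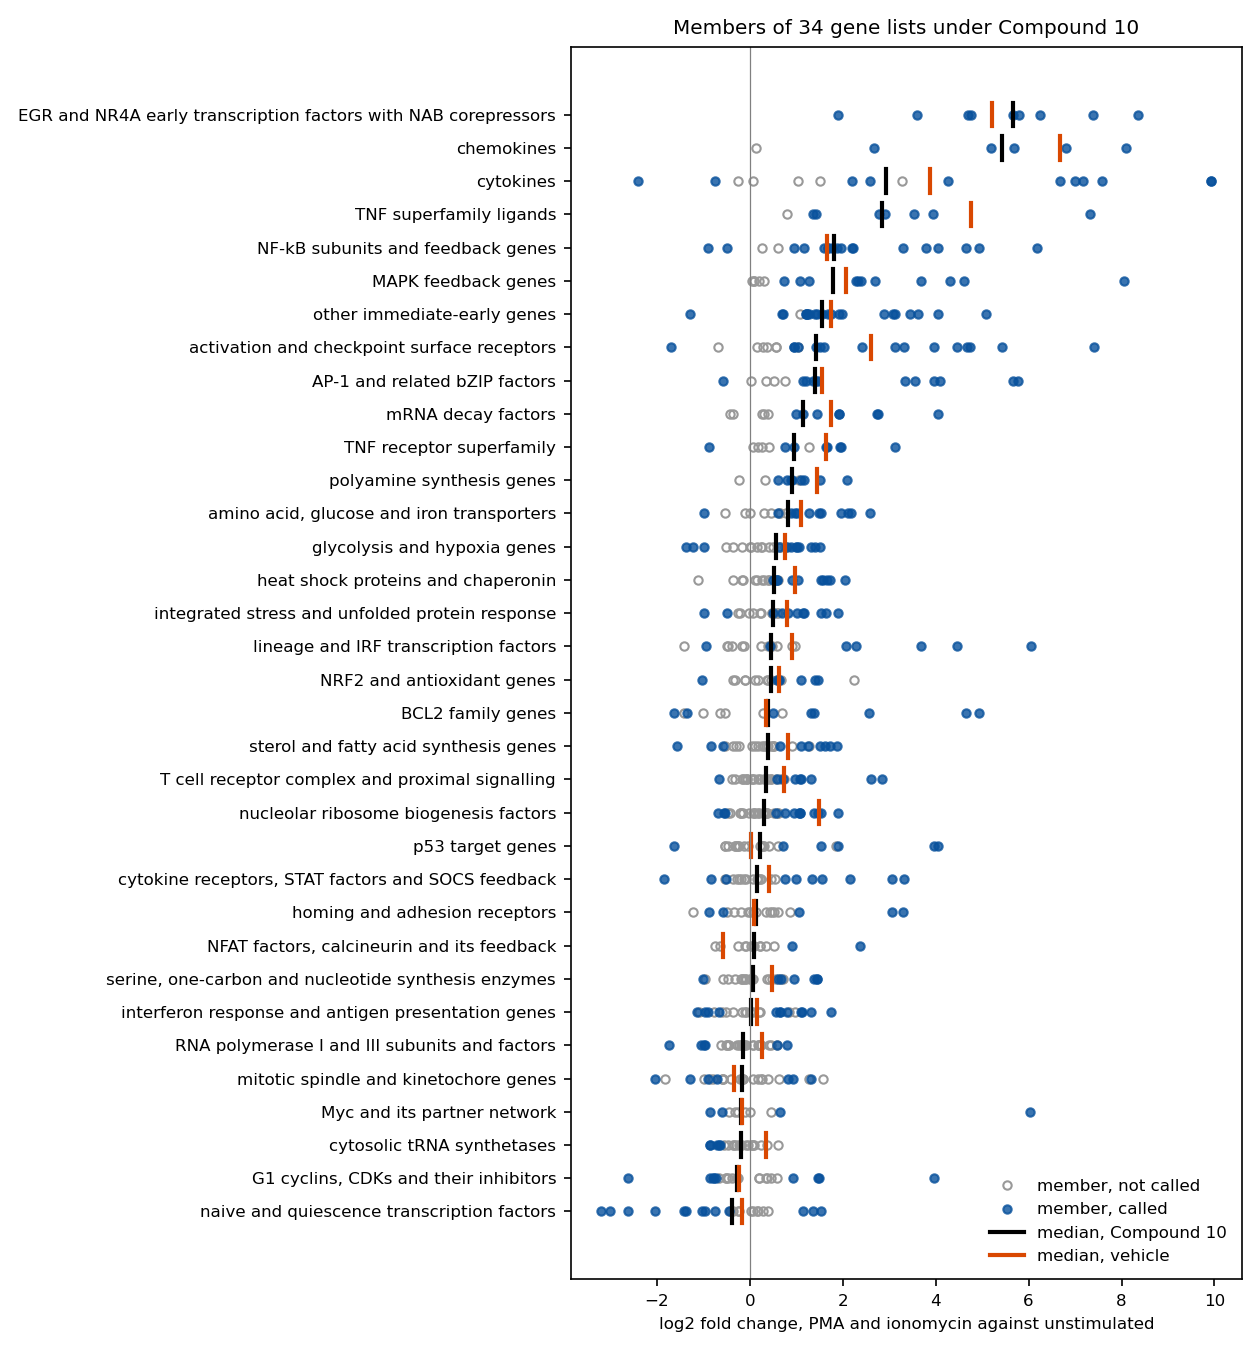
Log2 fold change with Compound 10 of each tested member of 34 gene lists (1 point per gene, filled when called), with the list median for Compound 10 (black bar) and vehicle (orange bar). EGR and NR4A factors, chemokines and cytokines have the highest medians (5.66, 5.43 and 2.93), and quiescence factors the lowest (-0.39).

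Growth genes gave a mixed picture that began with Myc. Myc, the transcription factor that drives biosynthesis in activated T cells, was at 34.9 and 35.6 CPM without and at 2113, 2268 and 2528 CPM with stimulation (6.03 ± 0.20, adjusted p = 5.34e-08). Stimulated vehicle cells held 2596 and 2585 CPM, slightly above these, and the difference of -0.29 did not pass (adjusted p = 0.486). Nucleolar ribosome biogenesis factors rose in 10 of 34 cases (29.4%) and fell in 3 (8.82%) with Compound 10 (median 0.31, and -0.28 with library totals). Under vehicle 30 of 34 rose and none fell (median 1.49), and 21 rose and 2 fell with library totals (median 0.71). With Compound 10 the stable rises numbered 8, led by Nolc1 (1.90 ± 0.16), Ltv1 and Ppan (1.47 ± 0.17), and the 3 falls were lost without the second unstimulated or the first stimulated library. Nolc1, a nucleolar phosphoprotein, read 79.2 and 66.1 without and 273, 251 and 291 CPM with stimulation, and Ncl and Npm1, abundant nucleolar chaperones, rose by 1.08 and 0.95.

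The effect was more negative than under vehicle in 21 of the 34 ribosome biogenesis genes (4.08% of all tested genes were called in this direction), 9 without the first and 10 without the second stimulated vehicle library. Rrp1b, a nucleolar assembly factor, gave 8.18 and 7.51 without and 8.29, 13.1 and 14.1 CPM with stimulation, where vehicle cells went from 4.48 to 6.06 up to 46.6 and 60.9 CPM (difference -2.75 ± 0.35, adjusted p = 0.00215). Noc3l and Noc4l, which help export ribosomal subunits, stood at 0.06 and -0.15 against 2.15 and 1.58 under vehicle. Gnl3, a nucleolar GTPase, rose by 1.37 against 2.64 (difference -1.27 ± 0.18). The unstimulated levels of Noc3l overlapped between the treatments (8.75 and 8.16 against 8.02 to 10.5 CPM), while both of those of Rrp1b lay above vehicle.

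Subunits of RNA polymerases I and III rose in 2 of 28 cases (7.14%) and fell in 4 (14.3%, near the 13.7% of all genes; 0 and 2 without the first unstimulated library), and 2 falls were stable. Maf1, a repressor of polymerase III, fell by 1.74 ± 0.15, from 452 and 404 to 124, 120 and 140 CPM, and Rrn3, an initiation factor of polymerase I, by 0.97. Polr1b, the second largest subunit of polymerase I, overlapped between the groups (31.2 and 20.4 against 13.7, 21.9 and 19.1 CPM), while vehicle cells went from 21.2 to 27.3 up to 115 and 108 CPM. That difference was -2.67 ± 0.33 (adjusted p = 0.00215).

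Cytosolic tRNA synthetases rose in none of 23 cases and fell in 5 (21.7%) with Compound 10 (3 without the first unstimulated library), against 10 higher and 2 lower under vehicle (medians -0.20 and 0.35). With library totals the counts were 0 higher and 15 lower with Compound 10 (median -0.78), and the vehicle direction turned, to 2 higher and 13 lower (median -0.43). Tars, the threonyl enzyme, fell by 0.72 ± 0.15, from 60.2 and 56.1 to 31.0, 35.6 and 39.4 CPM, and rose under vehicle from 97.1 to 109 up to 181 and 188 CPM. The difference was -1.55 ± 0.21 (adjusted p = 0.00265). Farsa, a subunit of the phenylalanyl enzyme, fell by 0.86. Hars, the histidyl enzyme, read 69.3 and 62.9 without and 55.6, 53.6 and 59.4 CPM with stimulation, an effect of -0.23 that did not pass, against 1.19 under vehicle (difference -1.42 ± 0.21, adjusted p = 0.00407). Differences from vehicle numbered 8 in this list, each more negative with Compound 10, 3 without either stimulated vehicle library and 5 without the second unstimulated Compound 10 library.

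**Figure D5:**
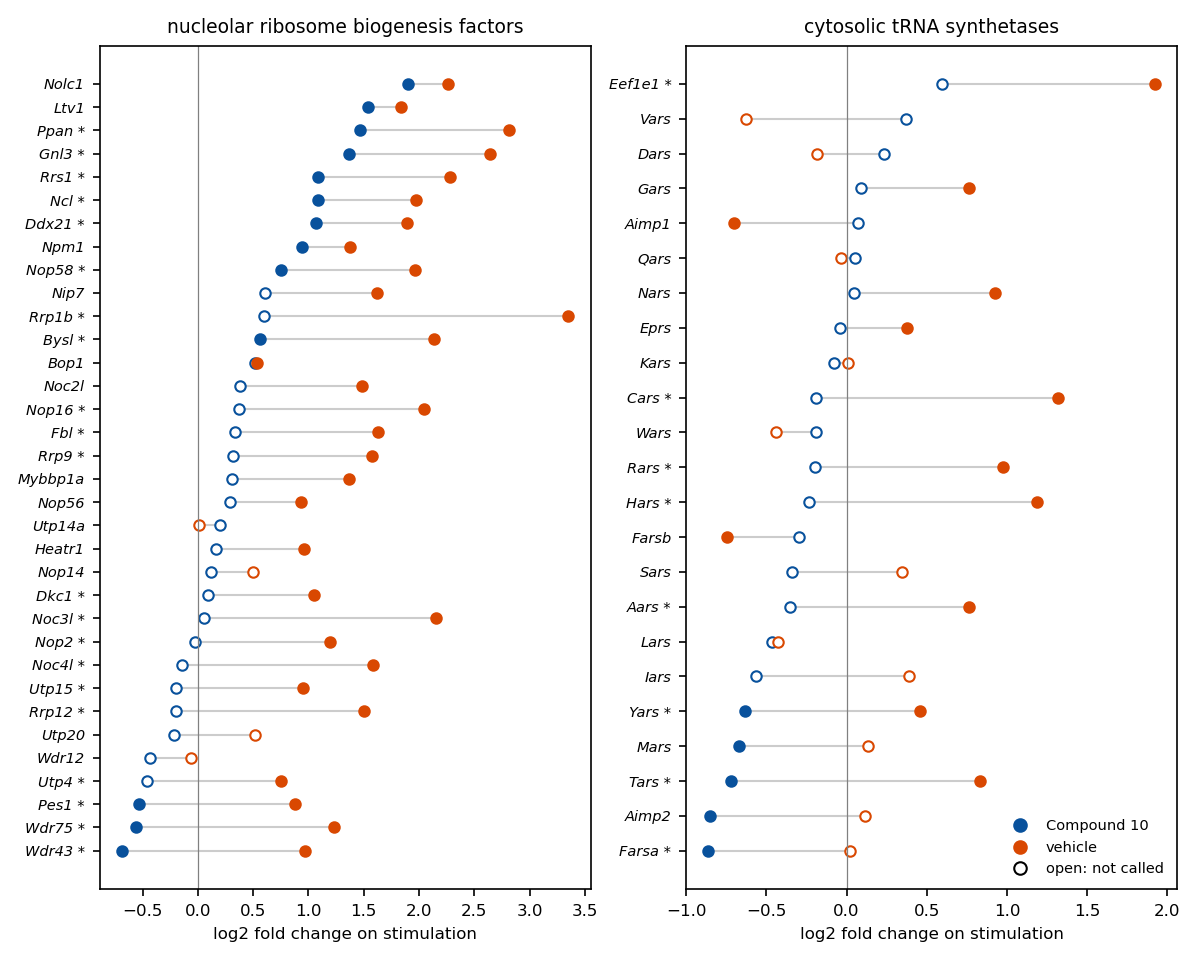
Log2 fold change on stimulation with Compound 10 (blue) and under vehicle (orange) for 34 ribosome biogenesis genes (left) and 23 tRNA synthetase genes (right), filled where called and with an asterisk where the difference was called (21 and 8 genes). Nolc1 and Ltv1 lie close together, and Rrp1b, Noc3l and Tars far apart.

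Transporters of amino acids, glucose and iron rose in 11 of 20 cases and fell in 1 (median 0.83), with 9 rises and the fall stable. Slc38a1, a glutamine carrier, went from 104 and 79.2 to 477, 619 and 538 CPM (2.58 ± 0.20), and Slc7a1, a carrier of arginine and lysine, from 44.3 and 33.6 to 158, 164 and 132 CPM (1.96 ± 0.22). Both rose by less than under vehicle, with differences of -1.71 ± 0.25 and -2.05 ± 0.28. Slc3a2, the heavy chain of the large amino acid carriers, rose by 1.53 and the glucose carrier Slc2a3 by 1.49. Slc20a1, a phosphate carrier, fell by 1.00, from 292 and 336 to 164, 153 and 155 CPM. Tfrc, the transferrin receptor that supplies iron, rose by 2.12.

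Polyamine genes rose in 8 of 11 cases and none fell (median 0.91), 5 of the rises stable and 3 called with library totals. Odc1, which makes putrescine, rose from 233 and 258 to 1362, 791 and 1004 CPM (2.10 ± 0.22) and Amd1, which supplies the aminopropyl donor, by 1.51, a value uncertain because its copy Amd2 shares sequence. Serine, one-carbon and nucleotide enzymes rose in 6 of 25 cases and fell in 1 (median 0.08, and -0.51 with library totals). Impdh2, the rate-limiting enzyme of guanine nucleotide synthesis, went from 405 and 462 to 1226, 1040 and 1287 CPM (1.45 ± 0.15), and Shmt1 of the folate cycle rose by 1.44. Gart, an enzyme of purine synthesis, fell by 1.02.

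Glycolysis and hypoxia genes rose in 9 of 26 cases and fell in 3 (0 without the second unstimulated library), with 7 stable rises (median 0.56, and -0.03 with library totals). Under vehicle 15 rose and 2 fell (median 0.75), and 10 rose and 9 fell with library totals. With Compound 10 the rises were as follows. Ldha, which makes lactate, went from 696 and 612 to 1623, 1590 and 1933 CPM (1.39 ± 0.16), Hk2 rose by 1.5 and Gapdh by 1.01. Pgam1 rose by 1.32, against 2.66 under vehicle on the log2 scale (difference -1.34 ± 0.19, adjusted p = 0.00273). Sterol and fatty acid genes rose in 7 of 27 cases and fell in 3 (1 without the first unstimulated or the second stimulated library), 5 rises being stable (median 0.38, and -0.21 with library totals). Among them are the cholesterol pathway enzymes Hmgcs1 (1.86), Idi1 (1.61), Sqle (1.5) and Cyp51 (1.11). Under vehicle 15 sterol and fatty acid genes rose and 2 fell (median 0.82), and 8 rose and 10 fell with library totals. With Compound 10 Cyp51 was at 65.0 and 79.7 without and at 183, 141 and 145 CPM with stimulation, against 511 and 411 CPM in stimulated vehicle cells (difference -1.91 ± 0.27, adjusted p = 0.00284).

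Heat shock and chaperonin genes rose in 11 of 22 cases (7 without the second unstimulated library) and none fell (median 0.52, and -0.07 with library totals). Hspa8, the constitutive HSP70, went from 5909 and 6169 to 19340, 17080 and 23760 CPM (1.73 ± 0.16) and Hsph1, its nucleotide exchange factor, rose by 1.58. Stress response and unfolded protein genes rose in 9 of 23 cases and fell in 2, 7 and 1 of them stable (median 0.50, and -0.09 with library totals). Hspa5, the chaperone BiP of the endoplasmic reticulum, rose by 1.63 ± 0.15, from 3099 and 3659 to 10560, 9276 and 11550 CPM, Xbp1 by 1.16 and Atf4 by 1.14. Ddit3, the CHOP gene, overlapped between the groups, and Trib3, a target of CHOP, fell by 0.98. NRF2 and antioxidant genes rose in 6 of 19 cases (3 without the first unstimulated or the first stimulated library), and Txnrd1 and Sqstm1 were stable (1.47 and 1.11). Under vehicle 17 of the 22 heat shock and chaperonin genes rose (median 0.96), and 7 rose and 3 fell with library totals. The effect was called more negative than under vehicle in 5 of the 22: Cct5, Cct6a, Cct8, Hspd1 and Tcp1. Of all tested genes 4.08% were called in this direction. The stress list had no called difference and the NRF2 list had 1, a more negative one in Hmox1. None of the differences called in these 3 lists was stable.

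BCL2 family genes, which set cell survival, rose in 6 of 14 cases (42.9%) and fell in 2 (14.3%; median 0.39, and -0.19 with library totals). The survival gene Bcl2l1 rose from 14.1 and 12.6 to 80.4, 73.9 and 80.3 CPM (2.56 ± 0.19) and Mcl1 by 1.39, while the death-promoting Bcl2l11 (BIM) also rose, by 1.31, and Bad fell by 1.36. Cdkn1a, the cell cycle inhibitor p21, moved from 51.4 and 75.9 to 899, 842 and 1249 CPM (3.97 ± 0.26). Of 23 p53 targets 5 rose (21.7%) and 1 fell, and Mdm2, a defining target, stood at 108 and 120 without and 112, 120 and 100 CPM with stimulation. G1 cyclins, kinases and inhibitors rose in 4 of 22 cases (18.2%) and fell in 5 (22.7%), each 2 without the second unstimulated library. Ccnd2, the D-type cyclin of activated T cells, went from 402 and 533 to 1128, 1231 and 1492 CPM (1.46 ± 0.20), against 3704 and 3788 CPM in stimulated vehicle cells (difference -1.88 ± 0.26, adjusted p = 0.0027). Of 27 mitotic genes 3 were called higher (11.1%) and 4 lower (14.8%), about the 12.8% and 13.7% of all tested genes. Mki67, which marks cycling cells, did not pass (adjusted p = 0.311).

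Interferon response and antigen presentation genes rose in 8 of 27 cases (5 without the third of the stimulated libraries) and fell in 4 (2 without the first unstimulated library, the second stimulated library or the third). Their median was 0.03, and -0.56 with library totals. Isg15, an ubiquitin-like interferon-induced protein, rose from 5.88 and 8.56 to 27.2, 20.2 and 26.4 CPM (1.75 ± 0.27).

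Ranked by size among called genes whose average log2 CPM was 3 or more and whose groups did not overlap, the falls were led by Zfp874a, a zinc finger gene, which went from 22.8 and 25.3 to 2.10, 2.91 and 0.177 CPM (-3.80 ± 0.56). Mrpl34, a mitochondrial ribosomal protein, fell by 3.46, S1pr4, a sphingosine phosphate receptor, by 3.01 and Rnf145, an ubiquitin ligase of sterol regulation, by 2.98. Ppil1, a spliceosomal isomerase, dropped from 65.5 and 53.6 to 5.20, 6.43 and 7.25 CPM (-3.23 ± 0.20), and its fall was larger than under vehicle by 2.15 on the log2 scale (difference -2.15 ± 0.27, adjusted p = 0.00215). Hic1, a transcriptional repressor, rose by 6.21 ± 0.70, from 0.703 and 0.0753 to 29.5, 17.4 and 21.3 CPM.

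Among genes of the same abundance whose groups did not overlap, Arl5c and Tspoap1 had the most positive stable differences from vehicle. Arl5c, an ARF-like GTPase gene, read 51.2 and 51.7 without and 592, 552 and 669 CPM with stimulation (3.55 ± 0.18), where vehicle cells held 20.4 to 27.4 and 29 and 31.1 CPM (difference 3.19 ± 0.24, adjusted p = 1.29e-04). Tspoap1 reached 54.8, 51.6 and 46.8 CPM, close to the 57.2 and 49.2 CPM of stimulated vehicle cells. Its unstimulated levels of 3.96 and 4.17 CPM lay far below the 27.0 to 42.5 CPM of vehicle (difference 3.11 ± 0.31, adjusted p = 8.80e-04). The same difference can thus stand on the stimulated level, as in Arl5c, or on the unstimulated one, as in Tspoap1.

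In 58 genes the stimulus acted in opposite directions, 17 higher and 41 lower with Compound 10, each with a called difference. Net1, a guanine nucleotide exchange factor for RhoA, fell from 300.2 and 289 to 105, 113 and 99.4 CPM (-1.48 ± 0.15) and rose under vehicle from 36.7 to 47.0 up to 158 and 168 CPM (difference -3.39 ± 0.21, adjusted p = 4.78e-05). Gtf3c4, a subunit of the polymerase III factor TFIIIC, fell by 0.95 ± 0.21 and rose by 1.37 under vehicle (difference -2.32 ± 0.30, adjusted p = 0.00221). For Net1 the unstimulated Compound 10 libraries lay above all 5 vehicle libraries.

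On the deposited TPM scale, which divides by transcript length and allows genes to be compared, the induced genes spanned a wide range. Leaving out clone-named gene models, which include those resembling ribosomal RNA, the highest mean in stimulated Compound 10 cells was 14570 ± 1621 TPM (SD, n = 3) for Hspa8. Nr4a1 held 11880 ± 420 TPM, near the translation elongation factor Eef1a1 (13200 ± 1163 TPM). The other induced genes named here lay below Eef1a1: Nfkbid reached 7982 ± 404, Tnf 5331 ± 513, Cd69 4614 ± 221, Egr1 4353 ± 431 and Cd40lg 3074 ± 116 TPM. Among the panel genes with far lower levels, Il2 held 46.6 ± 14.2 and Il2ra 28.0 ± 8.93 TPM.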

How the data were processed

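RNA-seq was made with 10 libraries of 4 groups. Per the submitters' processing notes, cutadapt, kallisto and mm10 were used (tool versions not given in the sources used here), and the authors deposited estimated counts and TPM (abundance scaled for transcript length and to a fixed library sum) per transcript. Per the labels' protocols the libraries came from a SMART-seq kit, whose reads carry no strand, so overlapping antisense genes cannot be told apart, and kallisto divides reads among near-identical copies. Transcripts were summed over 45321 genes of GENCODE M21 (108214 of 109617 matched; unmatched transcripts held 0.507% to 0.671% of the counts) and estimated counts were rounded to whole numbers. The 14417 genes that passed filterByExpr were fitted with edgeR 4.0.16 (R 4.3.3): quasi-likelihood, TMM factors, 1 coefficient per group, 6 residual degrees of freedom. Benjamini-Hochberg adjustment ran over all tested genes, with calls at 0.05. Standard errors are the log2 fold change divided by the square root of F and understate the error at low counts. Effects are stimulated minus unstimulated, and the difference is the Compound 10 effect minus the vehicle effect.

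The members and gene lists were chosen with earlier results of these data known, so list counts and medians are descriptions, to be read against the all-gene shares and median in the report, and carry no test of their own. Genes were named as the activation panel, the largest called rises and falls (average log2 CPM of at least 3, groups not overlapping), the leading or differing members of each list, the largest differences from vehicle and the highest TPM; further list members are named where a count turns on them. Counting intervals are exact, at 95%, and cover counting error only, as does the floor of 3 counts. On simulated counts with 200 changed genes among 14417, the Compound 10 contrast recovered 20.4% of 2-fold and 64% of 4-fold changes, with 6.84% of calls false, and the test of the difference 3.4% and 39.4%, with 8.94% false. Alternatives were RLE and upper-quartile factors, library totals, no filter, DESeq2 1.42.0, leaving out each library, a replicate block, the run of index numbers in the deposited names, and fits of the Compound 10 libraries alone. Results for a few genes are not reported here.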

Additional observations from a re-analysis of the deposited data

Results flagged for a closer look

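For these genes the stimulation effect under Compound 10 differed from that under vehicle by edgeR's test of the difference (log2 scale, Compound 10 minus vehicle). More positive differences were those of Arl5c (3.19), Tspoap1 (3.11), Egr1 (2.24), Btg2 (2.07), Egr2 (1.81) and Icam1 (1.67). Among ligands, receptors and adhesion molecules the effect was more negative for Tnfsf14 (-5.78), Cd160 (-3.95), Sema7a (-3.67), Btla (-3.39), Il2rb (-3.18), Tnfrsf9 (-2.64), Il6st (-2.53), Tnfsf8 (-2.25), Tnfsf11 (-2.20), Il2ra (-2.03) and Cd44 (-2.01). Signalling and regulatory genes with a more negative effect were Net1 (-3.39), Lcp2 (-2.12), Malt1 (-2.11), Cd6 (-2.05), Cd5 (-1.96), Nfatc1 (-1.33) and Zfp36l1 (-1.27). In growth and metabolism they were Rrp1b (-2.75), Polr1b (-2.67), Gtf3c4 (-2.32), Noc3l (-2.09), Slc7a1 (-2.05), Cyp51 (-1.91), Ccnd2 (-1.88), Noc4l (-1.73), Slc38a1 (-1.71), Tars (-1.55), Hars (-1.42), Pgam1 (-1.34) and Gnl3 (-1.27). Ppil1, which fell under both treatments, gave -2.15. The calls of Egr2 and Nfatc1 were lost when single libraries were left out, and the other calls were kept in each of the 10 such fits.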

How the results depend on the processing

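For stimulation under Compound 10, 6029 genes were called with library totals, 2273 when a 2-fold change was also required and 2347 (without the second unstimulated library) to 4370 when 1 library was left out. Under vehicle the leave-one-out counts ran from 3568 (without the first stimulated library) to 5769. The difference was called for 1448 genes with no filter, 1692 by DESeq2, 2167 with the index run as a term and 191 to 1332 with 1 library left out. The share called higher was 48.3% under Compound 10, 55.9% with upper-quartile factors and 13.4% with library totals; for the difference it was 38.5%, 50.9% and 62.7%, and under vehicle 50.1% and, with library totals, 15.4%. Correlations of deviations from the group means were 0.0745 and -0.0222 for the same-numbered pairs of Compound 10 libraries. The deviations of 2 unstimulated libraries mirror each other, so these values cannot decide whether the samples were paired. With the replicate block 4469 genes were called under Compound 10, 5964 under vehicle and 1504 in the difference. The 4 same-numbered Compound 10 libraries alone gave 2383, and the index run as a term gave 4679 under Compound 10. With the index run as a term the rises numbered 11 in the lineage list, 13 in the T cell receptor list, 11 in the sterol list and 5 in the homing list, and the falls of tRNA synthetases 8. Among 169 genes followed through the alternatives under Compound 10, 19 changed their call, and among 40 followed for the difference, 2 did. None of them changed the direction of a called effect. These genes were chosen largely among calls that the leave-one-out fits had kept, so the shares do not describe calls in general. Over all tested genes, 1748 of 3816 calls (45.8%) under Compound 10 were kept in each of those fits. For the difference 161 of 956 (16.8%) were kept. The causes were not tested. With 2 unstimulated and 3 stimulated libraries, small changes are the least certain. The simulation found few 2-fold ones, and fewest in the test of the difference, in a setting with fewer changed genes than were called here.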
